A study of Chlamydomonas reinhardtii with 12 samples.

Results

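The comparison described here sets the strain crr1dCys against the mutant crr1 of the unicellular green alga Chlamydomonas reinhardtii, in light-oxic culture and after 6 h of dark-anoxic incubation. A gene model was taken as a member where crr1dCys differed from crr1 by at least 1 unit of log2(RPKM + 1), in the same direction, in both the TS1 and the TS2 columns of a stage. RPKM is the read number of a model scaled to the length of the model and to the depth of the column, and 1 is the pseudocount added before the logarithm, so differences of models with low values are understated. Of 17301 gene models, 216 were members at either stage, and 211 of these averaged 1 RPKM or more across the 12 samples of the study.

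The crr1 strain lacks a working CRR1, a transcription factor. The strain crr1:CRR1 is this mutant rescued with CRR1, crr1dCys is the mutant rescued with a form of CRR1 without its cysteine-rich part, and CC-124 is the wild type. The labels give the strain names, and the content of the dCys form is background knowledge. Every strain except CC-124 therefore has the crr1 background, and the labels do not say how many transformants of a construct were used. The 4 strains were each sampled at 3 stages, which were light-oxic culture and 0.5 h or 6 h in sealed, stirred bottles in the dark, so that darkness and loss of oxygen came together. The labels give total RNA from cultured cells as the material.

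CRR1 (copper response regulator) belongs to the SBP family of plant and algal transcription factors. In copper-deficient Chlamydomonas it switches on genes that let the cell save or replace copper, among them the gene of the cytochrome that stands in for plastocyanin. The factor is also needed for part of the gene response to low oxygen, and the cysteine-rich part lies at its C-terminal end. The deposited table gives model identifiers without gene names, and the reference table for this species holds 0 symbols. No model below is therefore given a gene name or a role, and the levels of CRR1 itself and of the known copper genes are not analysed here.

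Both strains had a TS1 and a TS2 column in light and at 6 h. At 0.5 h crr1 had a TS1 column and crr1dCys had both. The labels list 1 sample for each strain and stage, and nothing says that TS1 and TS2 were separate cultures, so a difference at 1 stage has no test. The inferred depth ran from 12001000 to 18894000 reads per column. The 6 h TS4 column of crr1:CRR1 stood apart, since 3907 models differed by at least 1 between it and the TS1 column of the same sample, with an SD of the difference of 1.01. The member rule does not use that column. Values of crr1:CRR1 at 6 h are given for both columns.

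In light-oxic culture 65 models were higher in crr1dCys than in crr1 and 22 were lower, which is 0.376% and 0.127% of all models. After 6 h of dark anoxia 90 models were higher and 91 lower, which is 0.52% and 0.526%. The rule itself fixes these shares, so nothing is read from them. The median of the mean difference over the members was 1.67 for the higher and -1.60 for the lower models in light, and 1.95 and -1.40 at 6 h, on the log2(RPKM + 1) scale. The median over all models lay between -0.05 and 0.06 in the 4 pairs of columns. The higher side held more of the large differences. At least 2 units in both series were found for 15 higher and 4 lower models in light, and for 39 higher and 6 lower models at 6 h.

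**Figure D1:**
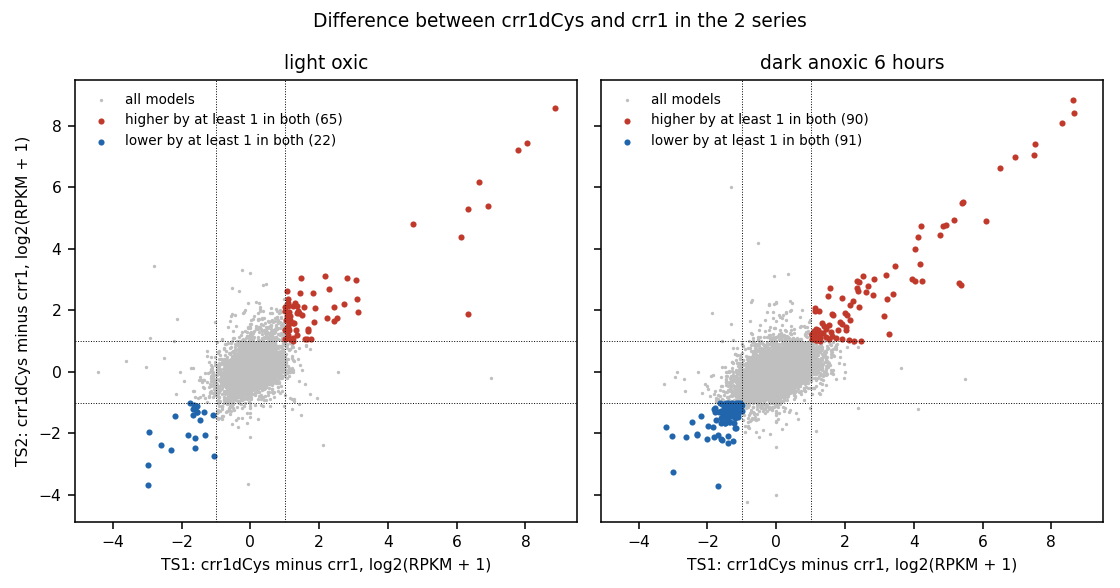
Difference between crr1dCys and crr1 in log2(RPKM + 1) for 17301 models, with the TS1 pair of columns on the x axis and the TS2 pair on the y axis, in light-oxic culture (left) and after 6 h of dark anoxia (right). Red points are the 65 and 90 higher models, blue points the 22 and 91 lower models, and dotted lines mark a size of 1. The higher models reach beyond 8 units in both series, while no lower model passes -4.

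Requiring both series removed most of the models that passed in 1 of them. In light, 142 models were higher and 111 lower in TS1, and 269 were higher and 92 lower in TS2. At 6 h the counts were 399 and 362 in TS1, and 223 and 201 in TS2. The repeat columns of a strain also differed from each other. In light, 153 models differed by at least 1 between the TS1 and TS2 columns of crr1dCys (SD of the difference 0.271) and 66 between those of crr1 (SD 0.25). At 6 h these counts were 177 (SD 0.285) and 173 (SD 0.324). Another 8 models at each stage passed the size in both series with opposite signs.

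Scaling moved the balance of the 2 directions at 6 h. With columns rescaled by median of ratios, 110 models were higher and 68 lower, and with quantile normalization 108 were higher and 81 lower. In light the counts under these scalings were 54 and 25, and 53 and 24. The equal numbers of higher and lower models at 6 h thus hold for the values as deposited.

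Membership was compared between the stages. Of the higher members, 38 were members at both stages, 27 in light only and 52 at 6 h only. Of the lower members, 14 were members at both stages, 8 in light only and 77 at 6 h only. None had opposite directions at the 2 stages. Members were 0.376% (higher) and 0.127% (lower) of all models in light, and 0.52% and 0.526% at 6 h. With shares this small, few or no opposite models would be met even without a link between the stages. The number to be met was not computed, so nothing is read from their absence. The members at both stages made up 58.5% of the higher and 63.6% of the lower models in light, and 42.2% and 15.4% of those at 6 h. Members of 1 stage are described next by their sign at the other stage. The same share over all models was not counted, so no lean of the members is read from these numbers. Of the 52 models higher at 6 h only, 37 were above 0 in both series in light, with a median difference of 0.53, and of the 77 lower at 6 h only, 60 were below 0 in light, with a median of -0.59. Of the 27 models higher in light only, 24 were above 0 in both series at 6 h (median 0.76), and of the 8 lower in light only, 5 were below 0 (median -0.65).

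**Figure D2:**
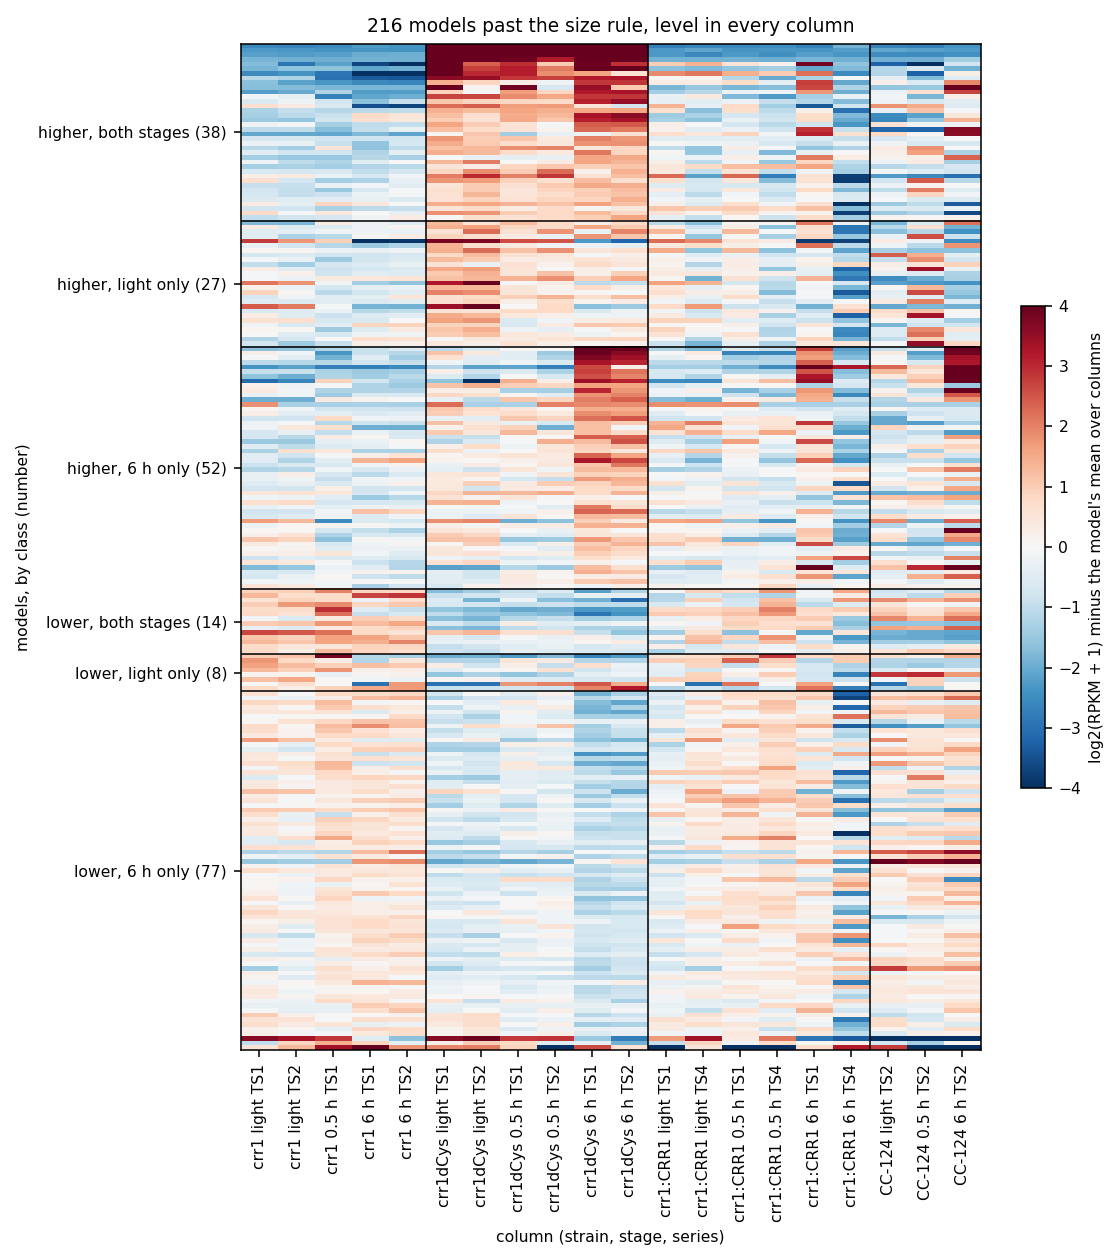
Level of the 216 members in all 20 columns, as log2(RPKM + 1) minus the mean of the model over the columns (colour scale, cut at -4 and 4), with models in rows by class and columns by strain, stage and series. The 6 crr1dCys columns are dark red for the top models of the class that is higher at both stages, and the 6 h TS4 column of crr1:CRR1 differs from its TS1 neighbour in many rows.

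A group of models was read at high levels in crr1dCys and close to 0 in every other strain. Cre02.g118400.t1.2 had 531 and 423 RPKM in the light TS1 and TS2 columns of crr1dCys, 278 and 206 RPKM at 0.5 h, and 581 and 599 RPKM at 6 h. Its highest value in any column of another strain was 0.861 RPKM, in the 6 h TS4 column of crr1:CRR1. The groups did not come near each other at any stage. In recovered reads, the crr1dCys columns held between 6916 and 22100 reads of this model, and the crr1 columns between 5 and 13. The difference from crr1 was 8.84 and 8.57 in light and 8.64 and 8.83 at 6 h, with no test.

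Cre07.g351950.t1.2 and Cre07.g352000.t1.1 showed the same pattern and are next to each other in the gene order of the reference assembly Chlamydomonas_reinhardtii_v5.5. Cre07.g351950.t1.2 had 278 and 180.2 RPKM in light, 139 and 88.3 RPKM at 0.5 h and 410.0 and 340.1 RPKM at 6 h in crr1dCys. Its values in the other strains did not exceed 0.242 RPKM, and it was listed at 0 in the 0.5 h column and in the 6 h TS2 column of crr1. Cre07.g352000.t1.1 had 1510.3 and 957 RPKM in light, 1006 and 532 RPKM at 0.5 h, and 2488 and 2165 RPKM at 6 h in crr1dCys. It was the most abundant model of this group, and unlike its neighbour it was read in every other strain, at up to 6.97 RPKM.

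Cre10.g436450.t1.1 had 105 and 72.8 RPKM in light, 55.8 and 33.6 RPKM at 0.5 h, and 126 and 129.5 RPKM at 6 h in crr1dCys, against at most 0.469 RPKM in the other strains. Cre13.g573950.t1.2 had 85.2 and 29.7 RPKM in light, 38.3 and 18.1 RPKM at 0.5 h, and 194 and 156 RPKM at 6 h in crr1dCys, against at most 1.89 RPKM elsewhere. All 5 models were lowest in crr1dCys at 0.5 h. Each of them was lower in the TS2 than in the TS1 column of crr1dCys in light and at 0.5 h.

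Cre01.g000150.t1.1 was also separate from the other strains, which read it at low but measurable levels. It had 139 and 132 RPKM in light, 81.9 and 76.7 RPKM at 0.5 h and 104 and 109 RPKM at 6 h in crr1dCys. In crr1 the values were 4.34 and 3.8 RPKM in light, 0.455 RPKM at 0.5 h, and 0.153 and 0.103 RPKM at 6 h. The crr1 level thus lay lower in both dark stages than in light, while crr1dCys stayed between 76.7 and 139 RPKM. In crr1:CRR1 it had 11 and 11.2 RPKM in light, 4.25 and 1.85 RPKM at 0.5 h, and 3.8 (TS1) and 9.95 RPKM (TS4) at 6 h. CC-124 had 7.78, 2.5 and 7.04 RPKM over the 3 stages. All 4 strains were thus lower at 0.5 h than in light.

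Cre07.g355150.t1.2 followed a similar course. It had 96.3 and 93.7 RPKM in light, 54.5 and 42.4 RPKM at 0.5 h, and 108 and 107 RPKM at 6 h in crr1dCys. In crr1 it had 12.9 and 10.5 RPKM in light, 1.28 RPKM at 0.5 h, and 2.52 and 2.89 RPKM at 6 h. The level at 0.5 h was also below that in light in crr1:CRR1, at 3.38 and 2.11 against 11.1 and 18.3 RPKM, and in CC-124, at 3.2 against 12.7 RPKM. All crr1dCys columns were above the 18.3 RPKM of the highest column of another strain. The difference from crr1 was 2.81 and 3.04 in light and 4.95 and 4.79 at 6 h. Its neighbour in the gene order, Cre07.g355200.t1.2, was a member too.

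Across all members, 19 models had each of the 6 crr1dCys columns above each of the 14 columns of the other strains, and 5 had them below. The counts over all models were 30 (0.173%) and 26 (0.15%). These columns include those that chose the members, so the counts are descriptions. Leaving out the 6 h TS4 column of crr1:CRR1 gave 19 members above and 10 below, of 31 and 36 among all models. The 5 below were Cre01.g017700.t1.2, Cre01.g062700.t1.1, Cre06.g270050.t1.2, Cre08.g374100.t1.2 and Cre15.g640200.t1.2, which are listed here because they are few, after their values were seen.

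**Figure D3:**
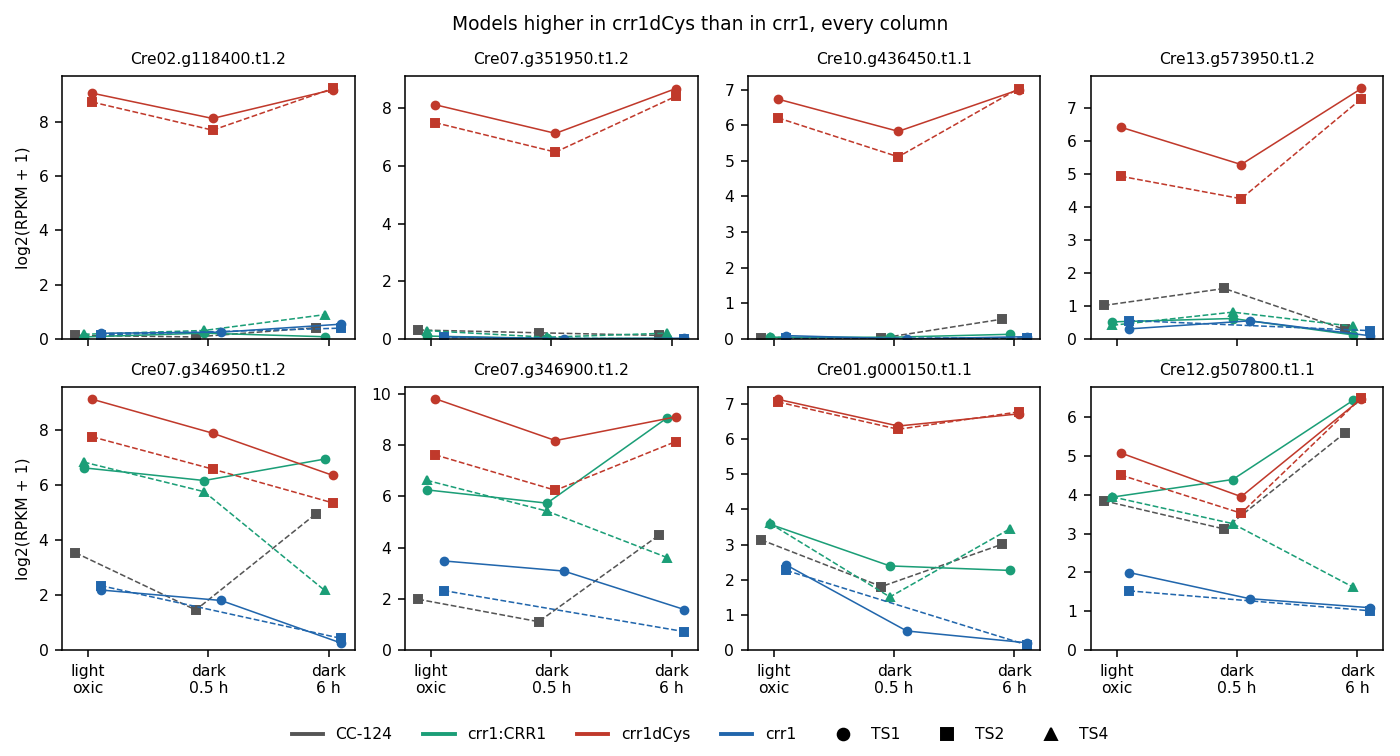
Level of 8 models that were higher in crr1dCys than in crr1, in log2(RPKM + 1), by stage on the x axis (light oxic, 0.5 h and 6 h of dark anoxia), with 1 point per column, colour for strain and marker shape for series. Lines join columns of the same series, and crr1 has no TS2 point at 0.5 h. The first 4 models are near 0 in all strains but crr1dCys, and in Cre12.g507800.t1.1 the 6 h points of crr1dCys, of CC-124 and of the TS1 column of crr1:CRR1 lie above both crr1 points.

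Another group was low in crr1 and also read in the strains with full-length CRR1. These strains are compared with the same crr1 columns, so their levels stand side by side and no overlap is drawn from them. Cre07.g346950.t1.2 had 547 and 212 RPKM in light, 233 and 93.7 RPKM at 0.5 h and 79.7 and 39.4 RPKM at 6 h in crr1dCys. In crr1 it had 3.52 and 4.04 RPKM in light, 2.47 RPKM at 0.5 h, and 0.187 and 0.337 RPKM at 6 h. In crr1:CRR1 it had 96.7 and 112 RPKM in light and 70 and 52.6 RPKM at 0.5 h. The 6 h columns of crr1:CRR1 were far apart, at 121 RPKM in TS1 and 3.49 RPKM in TS4. CC-124 lay at 10.5, 1.74 and 29.8 RPKM over the 3 stages, so the wild type was near crr1 at 0.5 h and above it at 6 h.

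Cre07.g346900.t1.2 had the widest range among these. In crr1dCys it had 898 and 196 RPKM in light, 289 and 74.4 RPKM at 0.5 h, and 549 and 281 RPKM at 6 h. In crr1 it had 10.1 and 4 RPKM in light, 7.47 RPKM at 0.5 h, and 1.99 and 0.645 RPKM at 6 h. In crr1:CRR1 it had 75.3 and 97.8 RPKM in light, 52.2 and 41.9 RPKM at 0.5 h, and 537 (TS1) and 11.2 RPKM (TS4) at 6 h. The TS1 and TS2 columns of crr1dCys in light differ more than the columns of most named models do, and both were above every crr1 column. CC-124 had 2.94, 1.15 and 21.3 RPKM over the stages. At the same stage CC-124 was below crr1 in light and at 0.5 h, and above both crr1 columns at 6 h.

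Cre12.g507800.t1.1 had 32.9 and 21.8 RPKM in light, 14.5 and 10.5 RPKM at 0.5 h, and 88.4 and 90 RPKM at 6 h in crr1dCys. In crr1 it had 2.99 and 1.88 RPKM in light, 1.5 RPKM at 0.5 h, and 1.13 and 1.02 RPKM at 6 h. CC-124 had 13.4, 7.7 and 47.3 RPKM, and crr1:CRR1 had 14.4 and 14.5 RPKM in light and 85.8 (TS1) and 2.08 RPKM (TS4) at 6 h. In crr1dCys and CC-124, and in the TS1 columns of crr1:CRR1, the 6 h level was above the light level. In crr1 it was below.

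Cre03.g151950.t1.1 and Cre14.g609500.t1.2 are given apart from this group. They differed by a similar amount at both stages. Cre03.g151950.t1.1 had 26.3 and 23.5 RPKM in light and 28.3 and 29 RPKM at 6 h in crr1dCys, against 3.17 and 4.28 RPKM and 3.8 and 3.97 RPKM in crr1. Cre14.g609500.t1.2 had 16.5 and 12.1 RPKM in light and 74 and 88 RPKM at 6 h in crr1dCys, against 2.24 and 2 RPKM and 13.1 and 10.7 RPKM in crr1. The second model was higher at 6 h than in light in both strains, by 2.10 and 2.77 units in crr1dCys and by 2.12 and 1.96 in crr1. Its difference from crr1 was 2.43 and 2.12 in light and 2.41 and 2.93 at 6 h. In crr1:CRR1 it had 2.61 (TS1) and 1.89 RPKM (TS4) in light and 13.7 and 1.18 RPKM at 6 h. In CC-124 it had 0.454 RPKM in light and 22.2 RPKM at 6 h. Cre03.g151950.t1.1 had 14.6 (TS1) and 2.21 RPKM (TS4) in light and 11 and 0.288 RPKM at 6 h in crr1:CRR1. In CC-124 it had 6.85 RPKM in light and 8.86 RPKM at 6 h.

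Models higher at 6 h only passed the size after 6 h of dark anoxia and not in light. The 4 models with the largest difference in this class are given here, chosen after their values were seen. Cre13.g585050.t1.1 had 2.82 and 4.26 RPKM in light and 153 and 164 RPKM at 6 h in crr1dCys, against 1.44 and 1.6 RPKM and 3.26 and 4.42 RPKM in crr1. Cre12.g490500.t1.1 had 298 and 179.5 RPKM in light and 2102 and 1682 RPKM at 6 h in crr1dCys, against 159.6 and 124 RPKM and 72.3 and 62.2 RPKM in crr1. Cre12.g490477.t1.1 had 7.44 and 3.03 RPKM in light and 71.8 and 56.2 RPKM at 6 h in crr1dCys, against 4.29 and 3.02 RPKM and 2.89 and 1.12 RPKM in crr1. In all 3 the strains differed less in light than at 6 h.

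Cre08.g372200.t1.1 was the most abundant of the 4. It had 91.9 and 16.4 RPKM in light, 767 and 337 RPKM at 0.5 h, and 2929.8 and 2356 RPKM at 6 h in crr1dCys. In crr1 it had 32.4 and 45 RPKM in light, 524 RPKM at 0.5 h, and 168 and 113 RPKM at 6 h. In light the series disagreed in direction, at 1.48 in TS1 and -1.40 in TS2. At 0.5 h the TS1 columns differed by 0.55, and at 6 h the difference was 4.12 and 4.37. At 6 h CC-124 had 6284 RPKM, and crr1:CRR1 had 3193 (TS1) and 196 RPKM (TS4). At 6 h CC-124 had 131 RPKM of Cre13.g585050.t1.1, 1959.8 RPKM of Cre12.g490500.t1.1 and 54.1 RPKM of Cre12.g490477.t1.1, all above both crr1 columns. The TS1 column of crr1:CRR1 had 52.1, 481 and 16.4 RPKM in the same order, also above both crr1 columns. Its TS4 column was below both crr1 columns for each of these models, at 0.797, 5.1 and 0.721 in log2(RPKM + 1). The crr1 columns were at 2.091 and 2.437, 6.197 and 5.981, and 1.962 and 1.082 on that scale.

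The 6 h only classes were also described by how each strain differed between 6 h and light. Of the 52 models higher at 6 h only, 24 were higher at 6 h than in light by at least 1 in both series of crr1dCys, and 8 were lower by at least 1 in both series of crr1. The median of 6 h minus light in this class was 1.2 in crr1dCys and -0.31 in crr1. Of the 77 models lower at 6 h only, 14 were lower at 6 h than in light by at least 1 in crr1dCys and 11 were higher in crr1, with medians of -0.44 and 0.31. Over all models 433 were higher and 731 lower at 6 h in crr1dCys, and 610 were higher and 712 lower in crr1. The class is chosen from the 6 h columns, so these numbers describe it and carry no test. In 21 of the 52 and 53 of the 77 models neither strain moved that far in the direction that opens the difference.

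The median levels of the classes in the strains with full-length CRR1 are given in log2(RPKM + 1), as levels and not as differences. For the 90 models higher at 6 h, the median was 5.33 in the TS1 column of crr1dCys, 2.03 in that of crr1 and 3.49 in that of crr1:CRR1, whose TS4 column had a median of 1.58. In the TS2 columns it was 4.90 in crr1dCys, 2.18 in crr1 and 3.34 in CC-124. For the 91 models lower at 6 h, the TS1 medians were 3.33, 4.69 and 4.68, and the TS2 medians 3.37, 4.70 and 4.65, in the same order of strains, and the TS4 column of crr1:CRR1 had 3.30. The TS1 column of crr1:CRR1 and CC-124 thus had medians between those of crr1dCys and crr1 for the higher models and close to that of crr1 for the lower ones. The TS4 column did not: its median was below that of crr1 for the higher models and near that of crr1dCys for the lower ones. The medians do not stand for single models. Of the 90 higher models, 37 in crr1:CRR1 (TS1) and 36 in CC-124 lay within 1 unit of crr1 alone. Within 1 of crr1dCys alone were 24 and 18, and beyond crr1dCys 8 and 15. Only 7 and 3 lay between crr1dCys and crr1 and near neither. The rest were within 1 of both (14 and 8) or beyond crr1 (0 and 10).

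In light the medians for the 65 higher models were 5.08 in crr1dCys, 2.73 in crr1 and 3.39 in crr1:CRR1 (TS1 columns), and 4.66, 2.70 and 2.93 with CC-124 as the last strain (TS2 columns). For the 22 lower models they were 2.20, 3.90 and 2.88 in TS1, and 2.13, 3.69 and 2.31 in TS2. The TS4 column of crr1:CRR1 had medians of 2.87 for the higher and 3.53 for the lower models. In light the lower models of CC-124 therefore had a median near that of crr1dCys.

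Among the lower models, Cre01.g017700.t1.2 was lower in crr1dCys than in every other strain. It had 57.1 and 60.2 RPKM in light, 46.6 and 65.1 RPKM at 0.5 h, and 33.9 and 47.2 RPKM at 6 h in crr1dCys. In crr1 it had 456 and 494 RPKM in light, 3137 RPKM at 0.5 h, and 102 and 90.2 RPKM at 6 h. The 0.5 h level of crr1 stands out, and the 0.5 h TS4 column of crr1:CRR1 was at 1610.5 RPKM against 447 RPKM in TS1. CC-124 had 357, 267 and 595 RPKM over the stages. The difference between crr1dCys and crr1 was -2.98 and -3.02 in light, -6.04 at 0.5 h (TS1), and -1.55 and -0.92 at 6 h, so the model was no member at 6 h.

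Cre08.g374100.t1.2 and Cre01.g062700.t1.1 were likewise lowest in crr1dCys. Cre08.g374100.t1.2 had 169 and 146 RPKM in light, 122 and 129 RPKM at 0.5 h, and 103 and 107 RPKM at 6 h in crr1dCys, against 836 and 844 RPKM, 3962 RPKM, and 356 and 264 RPKM in crr1. Cre01.g062700.t1.1 had 15.3 and 10.6 RPKM in light, 9.63 and 8.57 RPKM at 0.5 h, and 3.34 and 5.2 RPKM at 6 h in crr1dCys, against 56 and 47.5 RPKM, 148 RPKM, and 16.2 and 19.9 RPKM in crr1. In both models crr1 was highest at 0.5 h and lowest at 6 h, and in crr1dCys the 6 h columns were below the light columns.

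Cre01.g042700.t1.1 was lower by a similar amount at both stages. It had 1.43 and 2.03 RPKM in light and 0.792 and 2.31 RPKM at 6 h in crr1dCys, against 13.7 and 14.6 RPKM and 13.6 and 13.1 RPKM in crr1. CC-124 was also low, at 3.56, 4.72 and 2.64 RPKM over the stages, while crr1:CRR1 had 7.1 (TS1) and 14.6 RPKM (TS4) in light and 6.26 and 22.6 RPKM at 6 h. The repeat columns of crr1:CRR1 thus differed at both stages.

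**Figure D4:**
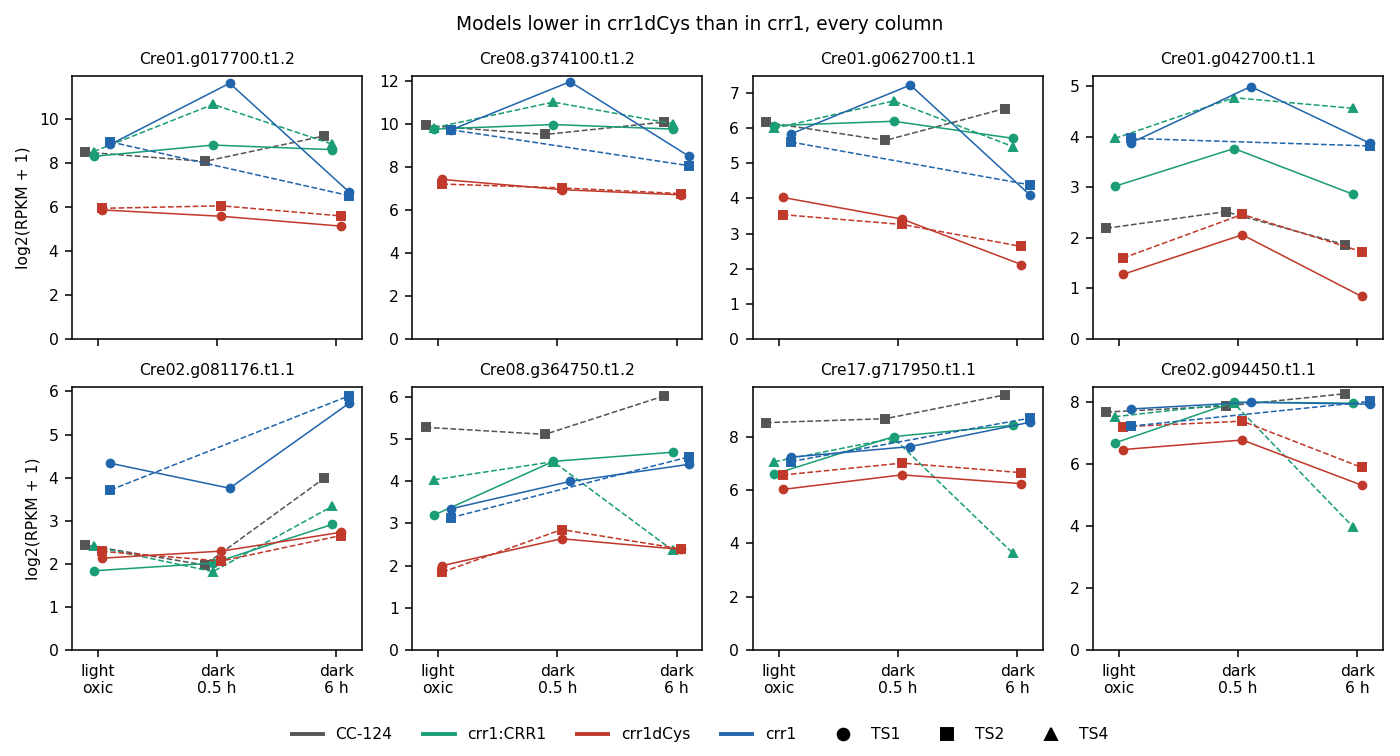
Level of 8 models that were lower in crr1dCys than in crr1, in log2(RPKM + 1), by stage on the x axis, with 1 point per column, colour for strain and marker shape for series. Lines join columns of the same series, and crr1 has no TS2 point at 0.5 h. In the first 3 models the crr1dCys points lie below all others and crr1 peaks at 0.5 h, and in Cre02.g081176.t1.1 the crr1 points lie above those of the other strains at the same stage.

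In Cre02.g081176.t1.1 the crr1 columns were above those of the other strains at each stage. It had 3.38 and 3.89 RPKM in light and 5.63 and 5.3 RPKM at 6 h in crr1dCys, against 19.2 and 12.1 RPKM and 51.9 and 58.7 RPKM in crr1. The 6 h values were 14.8 RPKM in CC-124 and 6.54 (TS1) and 9.09 RPKM (TS4) in crr1:CRR1. All strains had more of it at 6 h than in light.

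Cre08.g364750.t1.2 had 3 and 2.59 RPKM in light and 4.21 and 4.26 RPKM at 6 h in crr1dCys, against 9.16 and 7.77 RPKM and 20.1 and 22.9 RPKM in crr1. Cre08.g364765.t1.1 had 7.24 and 6.21 RPKM in light and 9.5 and 10.2 RPKM at 6 h in crr1dCys, against 23.3 and 16.7 RPKM and 50.8 and 44 RPKM in crr1. The identifiers of these models are close, and no source says how reads fitting more than 1 model were counted. Whether they share reads was not tested. CC-124 had the highest 6 h level of both, at 63.8 and 119 RPKM.

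Cre17.g717950.t1.1 and Cre02.g094450.t1.1 were abundant in all strains and lower in crr1dCys at 6 h. Cre17.g717950.t1.1 had 63.8 and 93.1 RPKM in light and 74.2 and 99.1 RPKM at 6 h in crr1dCys, against 149 and 133 RPKM and 369 and 412 RPKM in crr1. Cre02.g094450.t1.1 had 87.5 and 146 RPKM in light and 38.9 and 58.3 RPKM at 6 h in crr1dCys, against 218 and 149 RPKM and 243 and 258 RPKM in crr1. For both models the 6 h TS4 column of crr1:CRR1, at 11.3 and 14.6 RPKM, was the lowest of all columns, while the TS1 column, at 341 and 249 RPKM, was near crr1.

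Some members rested on few reads. Fewer than 10 reads in a column of the strain with the higher level were found for 1 higher and 2 lower models in light, and for 6 higher and 7 lower models at 6 h. Among the 90 models higher at 6 h, reads were recovered for 89. Cre20.g758350.t1.1 was listed at 0 in both light columns of crr1dCys. Its 6.85 and 11.8 RPKM in crr1 correspond to 1 and 2 reads at an inferred length of only 9 bases. Cre01.g069500.t1.1 was likewise listed at 0 in light in crr1dCys. Its 6.67 and 2.86 RPKM in crr1 correspond to 4 and 2 reads at an inferred length of 37 bases. The shortest length that matched was kept, so a longer length with more reads could match too. Both stand among the 6 lower models of light with the largest difference, so the order in that list rests on few inferred reads for these 2.

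The members nearest the size of 1 were also read. Cre12.g546600.t1.2 was just inside in light at 1.0 and 1.98, and Cre09.g390800.t1.1 just outside at 1.0 and 1.0 after rounding. On the lower side, Cre01.g031350.t1.1 was just inside at -1.76 and -1.0, and Cre12.g485350.t1.1 just outside at -1.0 and -1.48. At 6 h Cre14.g631500.t1.2 was just inside at 1.28 and 1.01, and Cre13.g562900.t1.1 just outside at 1.05 and 1.0. On the lower side at 6 h, Cre03.g165950.t1.1 was inside at -1.0 and -1.27, and Cre16.g668700.t1.1 outside at -1.63 and -0.99. The models on either side of the size were thus close in their smaller difference.

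At 0.5 h of dark anoxia, a stage that took no part in the choice, most members differed in the same direction. Over all models the TS1 difference had a median of 0.14, 63.9% of models were above 0 and 31.1% below, 2.45% were higher by at least 1 and 0.913% were lower by at least 1. Of the 65 models higher in light, 64 were above 0 at 0.5 h and 52 were higher by at least 1, with a median of 1.5. Of the 22 lower in light, 20 were below 0 and 16 were lower by at least 1, with a median of -1.53. Both shares past 1 exceeded those over all models in the same columns. There is 1 column per strain here, so the stage gives values and no test.

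The members of 6 h were closer to 0 at this earlier time. Of the 90 models higher at 6 h, 81 were above 0 at 0.5 h and 43 were higher by at least 1, with a median of 0.92. Of the 91 lower at 6 h, 88 were below 0 and 31 were lower by at least 1, with a median of -0.85. The higher models past 1 were mostly members in light too, and the lower ones mostly were not. Among models that were members at both stages, 34 of 38 were higher by at least 1 (median 2.24) and 12 of 14 lower by at least 1 (median -1.56). Among the 6 h only classes, 9 of 52 (median 0.51) and 19 of 77 (median -0.74) passed that size. No member of 6 h passed 1 in the other direction at 0.5 h. In light 1 lower model did, Cre20.g758350.t1.1 with few reads, at 1.75.

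**Figure D5:**
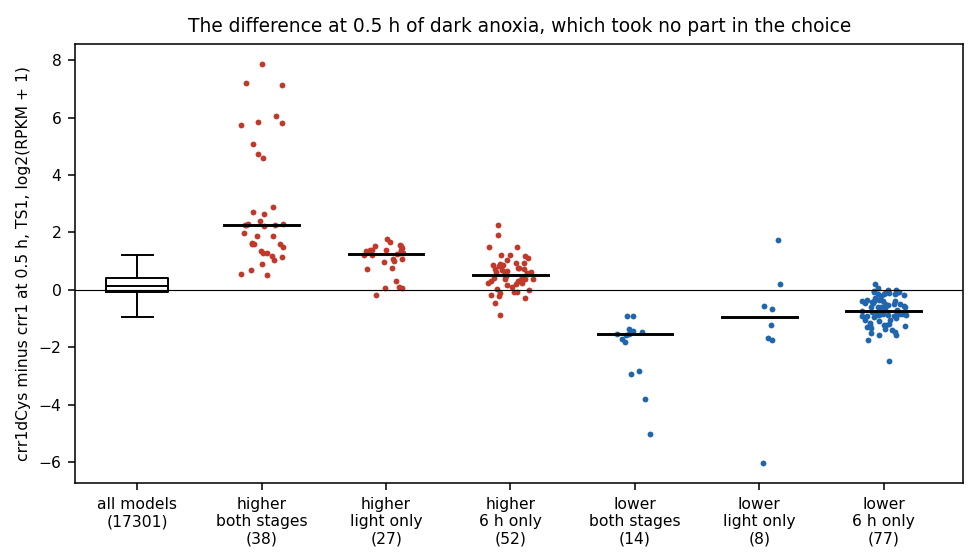
Difference between crr1dCys and crr1 after 0.5 h of dark anoxia in the TS1 columns, in log2(RPKM + 1), for all 17301 models (box from the first to the third quartile, whiskers at percentiles 1 and 99) and for the members by class (1 point per model, bar at the median). The classes of both stages have medians of 2.24 and -1.56, and the 6 h only classes lie nearer 0 with medians of 0.51 and -0.74.

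The one test the design allows takes the 3 stages as replicates of a strain. In limma, with stage as a block and the 9 samples of crr1, crr1:CRR1 and crr1dCys, 14311 models averaging 1 RPKM or more were tested, with 4 residual degrees of freedom. At an adjusted p under 0.05 (Benjamini-Hochberg), 85 models (0.594%) were higher and 51 (0.356%) lower in crr1dCys than in crr1. The p measures the spread of the strain difference over stages, and 2 of the 3 stages are those the members came from, so no p is given for a member. Of the 136 models called, 69 were members and 67 were not, while 211 of all 14311 tested models were members. The fit uses the columns that chose the members, so this overlap is built in and lends them no support. The count depended on the columns used. Without the TS4 columns of crr1:CRR1, which enter through the shared spread, 231 models were higher and 168 lower. With TS1 columns alone, which also leaves out the TS2 columns of crr1dCys and crr1, the counts were 789 and 526. Rescaling by median of ratios gave 85 higher and 80 lower models, and quantile normalization gave 85 and 93.

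The positions of members were read from the same reference assembly, used for gene order only. Of the 216 members, 147 matched a locus tag, as did 12666 of all models. On chromosome 7, 18 of 861 matched models were members (2.09%), and on chromosome 5, 9 of 297 (3.03%), against 1.16% over all matched models. These 2 chromosomes are given after the values were seen. Chromosome 14 had 1.96% (9 of 460), and the lowest share was 0.334% (3 of 899) on chromosome 16. The spread over chromosomes was not tested. Next to each other in the gene order were 10 pairs of members, and in all 10 the direction was the same. How often neighbours over all matched models share a direction was not counted. The number of pairs to be found among as many models placed at random was not computed either. The pairs are therefore only listed. In 9 pairs both models were higher and in 1 pair, Cre02.g077800.t1.1 and Cre02.g077850.t1.1, both were lower. The pairs included Cre07.g351950.t1.2 with Cre07.g352000.t1.1, Cre07.g355150.t1.2 with Cre07.g355200.t1.2, Cre10.g436450.t1.1 with Cre10.g436500.t1.1 and Cre14.g617400.t1.1 with Cre14.g617450.t1.1. Whether reads are shared between neighbours was not tested.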

How the data were processed

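RNA of 12 samples was sequenced on Illumina instruments, per the labels' protocols, and Bowtie is the tool named in the submitters' processing notes. No source used here states its settings, the genome build, the annotation or the counting, so these are not given. The authors deposited 1 table of 17301 models and 20 columns. No header names its unit, and the deposited values were read as RPKM from the values themselves. Low values fell on steps, from which depths and model lengths were inferred. The inferred length was a whole number (tolerance 0.1 base) for 98.8% of 2141 low models, and for 20.0% on average when the depth was set to other values. Whole reads came out for 97.7% of models. The shortest length that matched was kept, and some members came out at lengths of only 2, 8 or 9 bases. A depth smaller by a whole factor would match the steps too. Between 959 and 1347 models per column were listed at 0.

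Differences were taken as log2(RPKM + 1) within a series, with no filter. Repeat columns belong to 1 sample, so n is 1 per strain and stage and no strain difference at a stage was tested. The limma fit (limma 3.58.1, R 4.3.3) averaged repeat columns on the log2 scale. It and the member rule were tested on simulated data. Python 3.11.15, numpy 2.4.6 and pandas 2.3.3 were used. Named models were, at each stage and direction, the 6 with the largest smaller-of-both-series difference, up to 12 members of both stages, and those nearest the size of 1. Others are said to be chosen after their values were seen. Lists by gene symbol (copper, iron and zinc transport, fermentation and others) gave no value, since the reference table, Chlamydomonas_reinhardtii_v5.5, holds 0 symbols. No sequences were used here. The members and lists were chosen with earlier results of these data known. Alternatives were the pseudocount, the filter, the size, the scaling, each series alone, and, chosen after seeing the data, at least 10 reads in both columns of the higher strain and the order of the columns without the 6 h TS4 column.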

Additional observations from a re-analysis of the deposited data

Results flagged for a closer look

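For 5 of the members named by size or by both stages, 6 h minus light in log2(RPKM + 1) went opposite ways in the strains. It went one way in both series of crr1dCys and the other way in both series of crr1. Other members given above were not screened in this way, and some of them did so too, among them Cre12.g490500.t1.1 and Cre12.g490477.t1.1. Cre07.g351950.t1.2 differed by 0.74 in crr1dCys and -0.05 in crr1, Cre13.g573950.t1.2 by 1.77 and -0.26, and Cre12.g507800.t1.1 by 1.70 and -0.71. Cre07.g355150.t1.2 differed by 0.17 and -1.77. In these 4 the crr1dCys level was above its light level at 6 h and the crr1 level below. The crr1 columns held 4 reads or fewer of Cre07.g351950.t1.2, and 21 or fewer of Cre13.g573950.t1.2. Cre02.g094450.t1.1 went the opposite way, by -1.23 in crr1dCys and 0.47 in crr1. Each value is the mean of 2 series of 1 sample, and the difference between the strains was not tested. Of the 5 models, 4 are members at both stages, so the rule bears on the values.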

How the results depend on the processing

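A smaller pseudocount cannot change the sign of a difference and can only enlarge its size. That all members kept their direction with a pseudocount of 0.1 was therefore fixed in advance. In each series alone the rule fixes the direction, so neither setting checks the members. Where a model was no member, the series taken alone could disagree in sign. Cre20.g758350.t1.1 at 6 h was at 5.48 in TS1 and -0.23 in TS2, and Cre14.g631500.t1.2 in light at 0.20 and -0.08. With a pseudocount of 0.1 the numbers of higher and lower members were 156 and 99 in light and 237 and 173 at 6 h. With a pseudocount of 5 they were 32 and 8 in light and 50 and 51 at 6 h. With a size of at least 2 they were 15 and 4 in light and 39 and 6 at 6 h. With 1 series alone the range was 142 to 269 higher and 92 to 111 lower in light, and 223 to 399 higher and 201 to 362 lower at 6 h. Since a smaller pseudocount enlarges every difference, the counts could only stay or rise as the pseudocount was lowered. Requiring at least 10 reads left 64 and 20 members in light and 84 and 84 at 6 h. The 84 higher models at 6 h include Cre17.g700950.t1.1, for which no reads were recovered, so it was kept unchecked.

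For the limma strain term, a pseudocount of 0.1 gave 42 higher and 29 lower models, all 12 samples gave 49 and 26, and the 6 samples of crr1dCys and crr1 alone gave 575 and 330. Leaving out the TS4 columns gave 231 and 168, and leaving out TS2 as well, so that TS1 columns alone remained, gave 789 and 526. All models with a value above 0 gave 31 lower models, median of ratios gave 80 and quantile normalization 93. For the 62 differences of named models, a pseudocount of 0.1 moved 30 and a pseudocount of 5 moved 43 by more than the spread between series, and the scalings moved 11 and 12. No paired test at a stage was run, because the labels give 1 sample per strain and stage. Nothing says that the TS1 and TS2 columns were separate cultures. Stage was a block in the limma fit, and differences at a stage were taken within a series. Few reads limit the low models, and intervals were not given because read counts were inferred.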
